A study of Mus musculus with 8 samples.

Results

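The 10 genes described here encode the killing proteins and surface receptors by which natural killer (NK) cells and cytotoxic T cells are recognised: the granzymes Gzma, Gzmb and Gzmk, perforin (Prf1), the receptors Ncr1, Klrb1c, Klrk1 and Klrg1, the granule membrane protein Nkg7 and the transcription factor Eomes. They were chosen by name, with earlier results of these data known, from the 52636 genes of the count table. All 10 were among the 17327 genes that passed the filter on low counts. RNA had been sequenced from whole spleens of C57BL/6 mice, 6 weeks old, of 2 genotypes: wild type, and mice whose Lmna gene, for the lamin A and C proteins that line the nuclear envelope, carried the change R527C. Spleens of each genotype were taken at day 0 from mice that had received no irradiation, or at day 7 after 4 Gy, with 2 libraries in each of the 4 groups. The labels give neither the sex of the mice, nor whether the allele was on 1 or both chromosomes, nor whether the 2 libraries of a group came from separate mice, so p-values here measure only the spread between these libraries.

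Cytotoxic lymphocytes store granzymes, which are serine proteases, together with perforin in secretory granules. On contact with a target cell the granules are released, perforin forms pores in the target membrane, and the granzymes that enter cleave proteins that lead to the death of the cell. NK cells need no antigen receptor for this: they weigh signals from activating receptors such as NKp46 (Ncr1) and NKG2D (Klrk1) against inhibitory ones such as KLRG1 and most Ly49 receptors, and in the mouse spleen they lie mainly in the red pulp.

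Totals ranged from 12100784 to 19455470 counts per library, and levels are given as CPM, the share of a gene in the TMM-scaled size of its library, on which 3 counts, the most that an observed 0 allows, came to 0.131 to 0.35 CPM. The libraries held the lymphocytes and macrophages of a spleen: a list of 16 T cell genes summed to 248 to 1894 CPM and one of 12 macrophage genes to 1149 to 3935 CPM. All 4 unirradiated libraries had Y-linked transcripts, summing to 264 to 299 CPM, with 0 to 6 counts of Xist. All 4 irradiated libraries had 0 Y-linked counts and Xist at 1029 to 1776 CPM, so irradiation, day and sex-linked transcripts cannot be told apart in any comparison of irradiated with unirradiated spleens. Liver genes (Alb and 6 others) summed to at most 0.977 CPM without irradiation and to 55.5 to 465 CPM after it. Adipose genes (Adipoq and 6 others) summed to 113 CPM in irradiated mutant replicate 1 and to 1322 CPM in replicate 2. In the other libraries they summed to 6.98 to 151 CPM. The part of these tissues in the values of the 10 genes was not tested. The 2 irradiated mutant libraries stood apart from each other (r = 0.858 between their log2 CPM, against 0.924 to 0.984 in the other groups), and results that rest on them are given with and without each for the 10 genes and for the lists of their pathway.

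Of the 10 genes, 9 had an entry in the RefSeq table of promoters (GRCm38.p6), and Klrg1 had none there. The 250 bases before each start were searched on both strands for the words AGGTGTG (T-box factors, the family of Eomes and T-bet), TGTGGTT (RUNX factors) and AGGAAGT (ETS factors), and no 2 matches overlapped. TGTGGTT was in 4 of the 9 (Gzma, Gzmb, Ncr1 and Klrk1), against 4.4% of 32851 promoters, AGGTGTG in Nkg7 alone, against 5.1%, and AGGAAGT in Prf1 alone, against 7.69%. Gzmk, Klrb1c and Eomes held none of these words, which says nothing of the factors themselves. Shown are Gzma, Gzmb and Ncr1, the 3 genes with higher levels in both irradiated mutant libraries than in both irradiated wild type libraries, and Prf1, the 1 gene lower in the irradiated libraries of both genotypes. Each sequence runs 5′ to 3′ along the gene's own strand up to the base before the start, with the matched words in capitals. The windows are chr13:113100982-113101231 on the minus strand for Gzma, chr14:56262335-56262584 on the minus strand for Gzmb, chr7:4337474-4337723 on the plus strand for Ncr1 (the entry of 2 that ends at the GENCODE gene start) and chr10:61297586-61297835 on the plus strand for Prf1.
Gzma: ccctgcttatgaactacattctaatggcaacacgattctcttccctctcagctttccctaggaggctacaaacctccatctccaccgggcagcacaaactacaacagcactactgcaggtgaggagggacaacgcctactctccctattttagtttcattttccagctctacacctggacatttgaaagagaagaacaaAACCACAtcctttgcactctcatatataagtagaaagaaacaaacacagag
Gzmb: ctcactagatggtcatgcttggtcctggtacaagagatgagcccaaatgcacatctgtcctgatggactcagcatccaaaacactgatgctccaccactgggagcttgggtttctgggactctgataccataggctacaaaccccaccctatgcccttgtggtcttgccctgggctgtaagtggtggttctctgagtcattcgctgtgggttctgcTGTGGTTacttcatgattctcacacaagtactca
Ncr1: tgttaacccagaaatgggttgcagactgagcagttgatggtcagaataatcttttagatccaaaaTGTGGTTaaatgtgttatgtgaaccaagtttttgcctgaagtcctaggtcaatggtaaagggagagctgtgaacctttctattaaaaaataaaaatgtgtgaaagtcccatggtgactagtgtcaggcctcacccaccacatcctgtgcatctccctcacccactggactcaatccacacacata
Prf1: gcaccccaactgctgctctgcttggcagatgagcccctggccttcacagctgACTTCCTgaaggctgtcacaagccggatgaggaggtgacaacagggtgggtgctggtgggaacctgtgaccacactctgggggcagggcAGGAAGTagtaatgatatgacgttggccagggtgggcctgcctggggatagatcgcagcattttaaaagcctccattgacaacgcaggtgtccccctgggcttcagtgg
The RUNX word began 51 bases before the start in Gzma, where it reads on the other strand as AACCACA, 34 bases before it in Gzmb and 185 bases before it in Ncr1. Prf1 held its ETS word 198 bases before the start, as ACTTCCT on the other strand, and again 109 bases before it. A match describes the letters of these windows and no binding was measured.

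In unirradiated wild type spleen, Nkg7 and Gzma had the most transcript per length. Nkg7 was at 45.3 ± 7.67 and Gzma at 34.6 ± 2.28 CPM per kb of merged exons (SD, n = 2). Prf1 followed at 6.01 ± 0.223 CPM per kb and Gzmb at 5.05 ± 0.0431 CPM per kb. The receptors and Eomes lay lower, from 3.87 ± 1.06 CPM per kb for Ncr1 to 2.61 ± 0.224 CPM per kb for Klrg1, and Gzmk was lowest at 2.15 ± 0.178 CPM per kb. Neighbours in this order whose 2 libraries overlapped were Ncr1 with Eomes, and Klrb1c with Klrk1 and Klrg1. Nkg7, Gzma and Gzmb held the top 3 places in the other 3 groups, where Gzmb stood at 18.5 ± 2.18 CPM per kb in unirradiated mutants, 4.91 ± 0.335 CPM per kb in irradiated wild type and 27.9 ± 29.1 CPM per kb in irradiated mutants. Klrk1 has 7183 bases of merged exons in the annotation, against 914 for Nkg7, and its level per length depends on how many of those bases are in use.

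**Figure D1:**
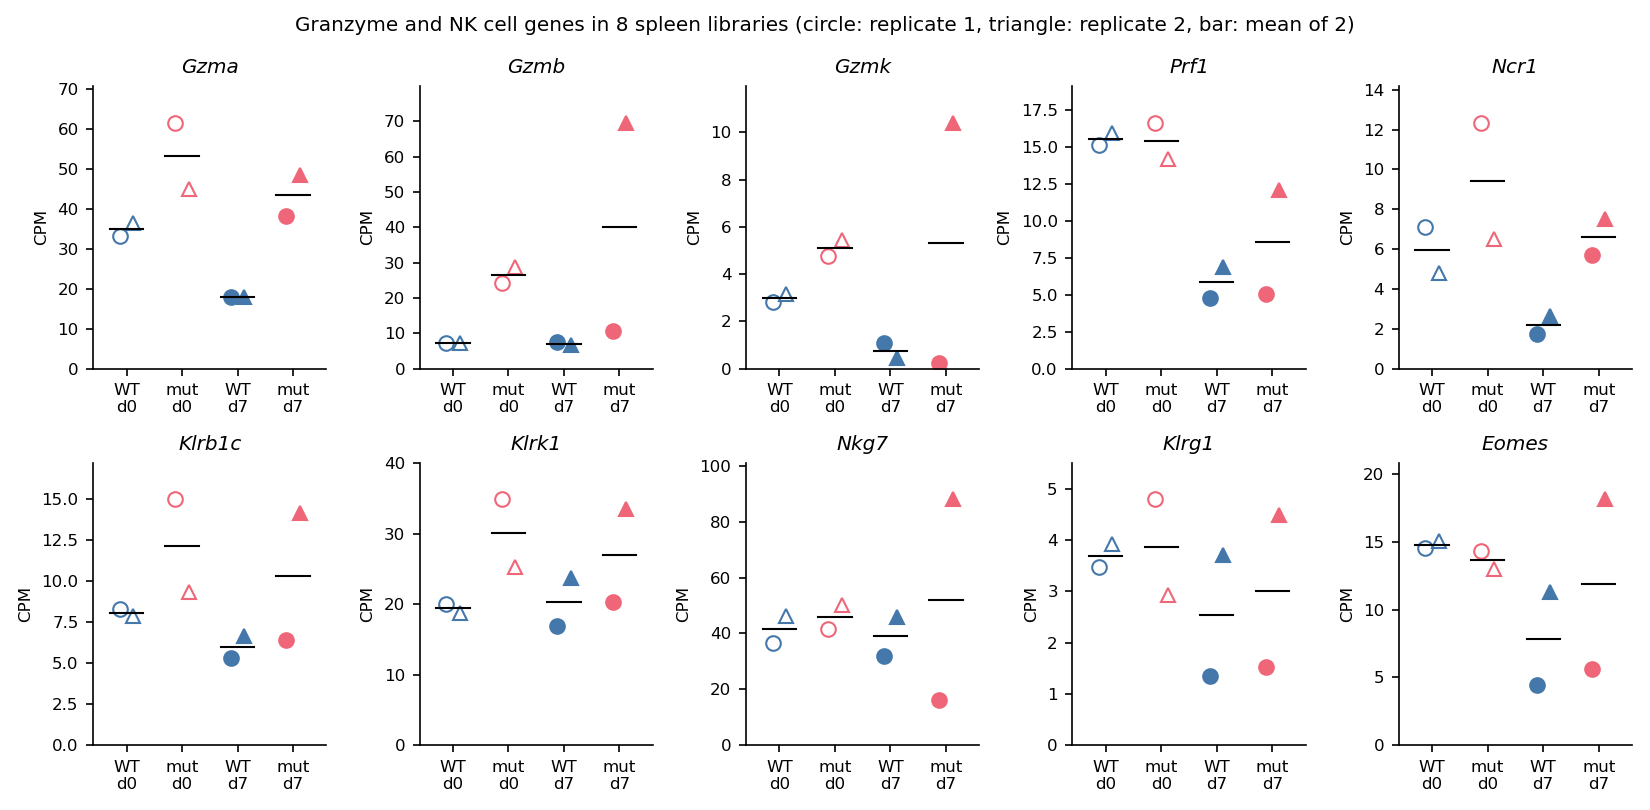
Level of each of the 10 genes in CPM in the 8 libraries, by group (WT, wild type; mut, mutant; d0, unirradiated; d7, irradiated), with a circle for replicate 1, a triangle for replicate 2 and a bar at the mean of the 2. Gzmb sits at 6.71 to 7.39 CPM in all 4 wild type libraries and at 10.5 to 69.5 CPM in the 4 mutant ones, and the 2 irradiated mutant points differ most, as a ratio, for Gzmk, Gzmb and Nkg7.

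Without irradiation, Gzma, Gzmb and Gzmk transcripts were more abundant in both mutant spleens than in both wild type spleens, whereas Prf1, Ncr1, Nkg7 and Klrg1 overlapped. Gzmb (ENSMUSG00000015437.5, chromosome 14, 56258838 to 56262260, minus strand), a protease that cleaves after aspartate and can activate caspases, was at 7.30 and 7.21 CPM in wild type and at 24.3 and 28.8 CPM in mutants. Both mutant values were over 3 times either wild type value, a fitted 3.66-fold difference (log2 fold change 1.87 ± 0.72 SE). Gzma (ENSMUSG00000023132.8, chromosome 13, 113093825 to 113100981, minus strand), a protease that cleaves after lysine or arginine, was at 33.2 and 36.4 CPM in wild type and at 61.5 and 45.0 CPM in mutants. Its fitted log2 fold change was 0.61 ± 0.28. Gzmk (ENSMUSG00000042385.14, chromosome 13, 113171608 to 113225908, minus strand), whose gene lies 70.6 kb from Gzma, was at 2.81 and 3.16 CPM in wild type and at 4.75 and 5.44 CPM in mutants. The fitted log2 fold change of Gzmk was 0.77 ± 1.12. The groups did not overlap for any of these 3 granzymes, while Gzmm, a granzyme outside the 10, was lower in both mutants. Prf1 (ENSMUSG00000037202.6, chromosome 10, 61297833 to 61304680, plus strand), the pore protein that lets granzymes into a target, was level by contrast: 15.1 and 15.9 CPM in wild type lay between the mutant values of 16.6 and 14.1 CPM.

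Among the receptors, Klrk1 and Klrb1c were likewise higher in both unirradiated mutants. Klrk1 (ENSMUSG00000030149.15, chromosome 6, 129610323 to 129623864, minus strand), the NKG2D receptor for stress-induced ligands, was at 20.0 and 18.8 CPM in wild type and at 34.9 and 25.2 CPM in mutants. Klrb1c (ENSMUSG00000030325.16, chromosome 6, 128778485 to 128789215, minus strand), which encodes the NK1.1 antigen of C57BL/6 mice, was at 8.27 and 7.84 CPM in wild type and at 14.96 and 9.31 CPM in mutants. Mutant replicate 1 was the higher of the pair for both. Ncr1, the NKp46 receptor found on nearly all NK cells, was at 7.12 and 4.81 CPM in wild type and at 12.3 and 6.51 CPM in mutants, so the groups overlapped. Klrg1 (ENSMUSG00000030114.8, chromosome 6, 122270596 to 122282882, minus strand), an inhibitory receptor of mature NK and effector T cells, was at 3.47 and 3.92 CPM in wild type and at 4.80 and 2.93 CPM in mutants, also overlapping. Nkg7, which takes part in granule release, was at 36.4 and 46.4 CPM in wild type and at 41.7 and 50.2 CPM in mutants. Eomes (ENSMUSG00000032446.14, chromosome 9, 118478212 to 118486132, plus strand), a T-box factor of NK cell and memory T cell maturation, was the 1 gene lower in both mutants, by a narrow margin: 14.6 and 15.1 CPM in wild type against 14.3 and 13.03 CPM.

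In this comparison 5 of the 10 genes were higher in both mutants (20.8% of all genes tested) and 1 was lower in both (25%). The median log2 fold change of the 10 was 0.60, with 8 above 0, against a median of -0.02 and 46.7% above 0 over all genes. None of the 10 passed edgeR's quasi-likelihood test at an adjusted p of 0.05, as none of the 17327 genes did (0%). Gzmb alone had an unadjusted p below 0.05, as did 2.24% of all genes. DESeq2 called 0 of the 10 and 0.346% of all genes, and limma-voom 0 of the 10 and 0% of all genes. Fitted on the 4 unirradiated libraries alone, Gzmb did pass, at 3.72-fold (log2 fold change 1.90 ± 0.20, adjusted p = 0.00106 by edgeR), where 469 of 16665 genes (2.81%) were called. Beside this, the T cell list summed to 1297 and 1651 CPM in wild type and to 1013 and 967 CPM in mutants, and 15 of its 16 genes were lower in both mutants. A granulocyte list was higher (1735 and 1490 CPM against 5916 and 11742 CPM), as was a plasma cell list (1011 and 1242 CPM against 2964 and 2571 CPM), and their part in the result was not tested. In RNA of a whole spleen, more cells of a type and more RNA per cell cannot be told apart.

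After irradiation, Gzma, Gzmb and Ncr1 were higher in both mutant spleens than in both wild type spleens. Gzma was at 17.8 CPM in both irradiated wild type libraries and at 38.2 and 48.5 CPM in mutants, 2.43-fold higher (log2 fold change 1.28 ± 0.28). Ncr1 (ENSMUSG00000062524.4, chromosome 7, 4337724 to 4345164, plus strand) was at 1.71 and 2.65 CPM in wild type and at 5.72 and 7.53 CPM in mutants, 3.04-fold higher (1.60 ± 0.50). For these genes the 2 mutant libraries lay close to each other and clear of wild type. Gzmb was at 7.39 and 6.71 CPM in wild type and at 10.5 and 69.5 CPM in mutants, 5.70-fold higher in the fit (2.51 ± 0.74), a value that rests mostly on mutant replicate 2. Gzmk was at 1.08 and 0.442 CPM in wild type and at 0.234 and 10.4 CPM in mutants, where replicate 1 held 2 counts and lay under the 3-count floor of its library. Its 2 mutant libraries lay on either side of wild type, and its fitted log2 fold change was 2.83 ± 1.27.

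The other 6 genes overlapped between the irradiated genotypes, and in each the high value was mutant replicate 2. Prf1 was at 4.78 and 6.89 CPM in wild type and at 5.02 and 12.1 CPM in mutants. Klrb1c was at 5.32 and 6.62 CPM in wild type and at 6.42 and 14.1 CPM in mutants. Klrk1 was at 16.9 and 23.8 CPM in wild type and at 20.3 and 33.5 CPM in mutants. In all 3, mutant replicate 1 fell within the wild type range. Klrg1 was at 1.35 and 3.71 CPM in wild type and at 1.52 and 4.48 CPM in mutants. Eomes was at 4.42 and 11.3 CPM in wild type and at 5.61 and 18.2 CPM in mutants. For these too, wild type replicate 1 and mutant replicate 1 were the low libraries. Nkg7 (ENSMUSG00000004612.9, chromosome 7, 43437073 to 43438249, plus strand) was at 31.9 and 46.0 CPM in wild type and at 16.1 and 88.0 CPM in mutants, so that wild type lay between the mutant libraries.

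All 10 genes had a fitted log2 fold change above 0 between the irradiated genotypes (51.6% of all genes), with a median of 0.70 against 0.02 over all genes. Of the 10, 3 were higher in both mutants (10.4% of all genes) and 0 were lower in both (7.46%). No gene of the 10 passed edgeR's test, and 0% of all genes did: the smallest adjusted p was 0.938, for Gzma. Gzma, Gzmb and Ncr1 were the 3 of the 10 with an unadjusted p below 0.05, as had 4.02% of all genes. DESeq2 called Gzma (log2 fold change 1.29, adjusted p = 0.0338) among 73 genes (0.421%), and limma-voom called 0 of the 10 and 0% of all genes. Without mutant replicate 1, edgeR called Gzma, Gzmb and Gzmk (adjusted p = 0.0335, 0.00523 and 0.0161) among 482 genes (2.57%). In such a fit the remaining library of the group is assumed to vary like the other groups. Without mutant replicate 2, 4 of the 10 were above 0 and the median was -0.17.

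**Figure D2:**
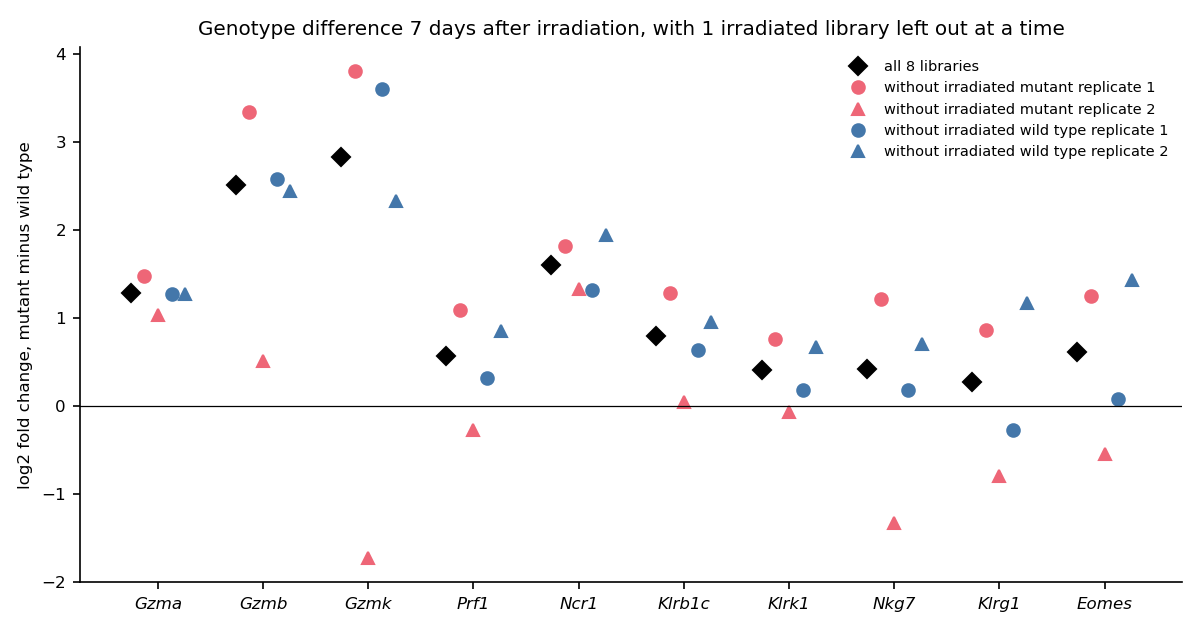
Fitted log2 fold change of each of the 10 genes between irradiated mutant and irradiated wild type spleen, with all 8 libraries (diamond) and without 1 of the 4 irradiated libraries at a time (circles, replicate 1; triangles, replicate 2). Gzma stays above 0 in the 5 fits, while 6 genes lie below 0 without mutant replicate 2: Gzmk (-1.73), Nkg7 (-1.33), Klrg1 (-0.80), Eomes (-0.55), Prf1 (-0.28) and Klrk1 (-0.06).

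The 2 irradiated mutant spleens differed in how much of each gene they held, and the genes separated by how far. The ratio of replicate 2 to replicate 1 was 1.27 for Gzma (95% exact counting interval 1.12 to 1.45) and 1.32 for Ncr1 (0.943 to 1.86). It was 1.65 for Klrk1, 2.20 for Klrb1c, 2.40 for Prf1, 2.95 for Klrg1 and 3.24 for Eomes. It reached 5.46 for Nkg7 (4.59 to 6.55), 6.61 for Gzmb (5.34 to 8.29) and 44.6 for Gzmk (12.2 to 371). Gzma and Ncr1, close to even, thus parted from Nkg7, Gzmb and Gzmk by more than counting error, which is the only error these intervals cover. All 16 T cell genes had ratios from 4.98 to 15.1 (median 8.51), and B cell genes a median of 16.2. For 26 other NK receptors and adaptors the median was 1.70, with ratios from 0.0395 to 16.5. For 16 genes of granule contents, release and effector cytokines the median was 2.17. For 22 NK transcription factors and cytokine receptors it was 3.36, with 18 of them above 2. Erythroid genes went the other way, at 0.0554 to 0.0997, with their sum at 136679 CPM in replicate 1 and 12181 CPM in replicate 2. The part of the T cell and erythroid differences in the ratios of the 10 genes was not tested. Over 2-fold differences between replicates, in either direction, were found in 7 of the 10 genes in irradiated mutants (44.7% of all genes), in 3 of 10 in irradiated wild type (29.3%; Klrg1, Eomes and Gzmk), and in 0 of 10 in unirradiated wild type (8.75%) and unirradiated mutants (6.38%).

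**Figure D3:**
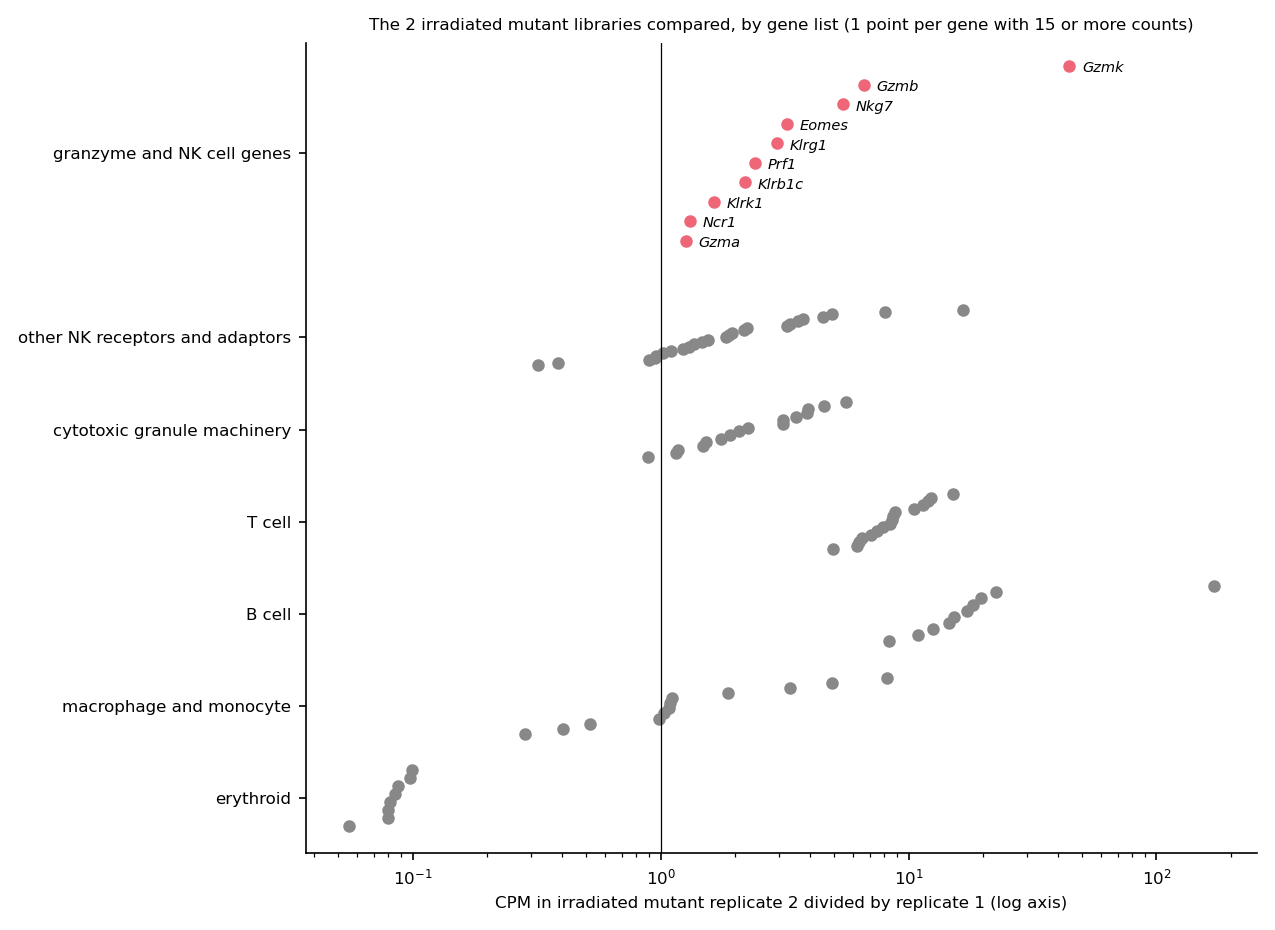
Ratio of CPM in irradiated mutant replicate 2 to that in replicate 1 for each gene with 15 or more counts, by gene list (log axis, with a line at 1, equal levels). Gzma (1.27) and Ncr1 (1.32) lie beside the line, Gzmb (6.61) and Nkg7 (5.46) lie among the T cell genes (4.98 to 15.1), and erythroid genes lie below 0.1.

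In wild type spleen, 6 of the 10 genes were lower in both irradiated libraries than in both unirradiated ones (27.8% of all genes): Gzma, Gzmk, Prf1, Ncr1, Klrb1c and Eomes. Prf1 went from 15.1 and 15.9 to 4.78 and 6.89 CPM, 2.66-fold lower (log2 fold change -1.41 ± 0.46). Ncr1 went from 7.12 and 4.81 to 1.71 and 2.65 CPM, 2.73-fold lower (-1.45 ± 0.50). Gzma went from 33.2 and 36.4 to 17.8 CPM in both libraries, 1.95-fold lower (-0.96 ± 0.28). For Prf1 and Gzma the spread within each pair was small beside the step between the groups, while the unirradiated Ncr1 pair differed by about as much as the gap between the groups. Gzmk went from 64 and 50 counts to 12 and 5 (log2 fold change -1.96 ± 1.25), and Eomes from 14.6 and 15.1 to 4.42 and 11.3 CPM. Gzmb stayed within 6.71 to 7.39 CPM over all 4 wild type libraries, so the granzymes did not share 1 pattern. Klrk1 (18.8 and 20.0 against 16.9 and 23.8 CPM), Nkg7 (36.4 and 46.4 against 31.9 and 46.0 CPM) and Klrg1 overlapped. None of the 10 was higher in both irradiated libraries (29.7% of all genes).

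None of the 10 passed the test for irradiation in wild type, where edgeR called 10 of 17327 genes (0.0577%). The adjusted p was 0.185 for Gzma, 0.204 for Prf1 and 0.222 for Ncr1, and these were the 3 of the 10 with an unadjusted p below 0.05, which 17.3% of all genes had. DESeq2 called Gzma (adjusted p = 0.0389) among 1161 genes (6.7%), and limma-voom 0 of the 10 and 0.0289% of all genes. Without either irradiated mutant library, which are not among the libraries compared here but share the estimate of the spread, edgeR called Gzma, Prf1 and Gzmk: adjusted p = 0.0283, 0.0175 and 0.0284 without replicate 1, with 13% of all genes called, and 0.0282, 0.0175 and 0.0329 without replicate 2, with 14.2% called. The median log2 fold change of the 10 was -0.73 with 1 above 0, against 0.09 and 54.2% over all genes. Beside this, the T cell list summed to 1297 and 1651 CPM without and 850 and 1482 CPM with irradiation, with 6 of its 16 genes lower in both irradiated libraries. The B cell list summed to 3865 and 4823 CPM without and 779 and 1555 CPM with irradiation, with 10 of 10 genes lower in both (median log2 fold change -1.89), and the granulocyte list to 1735 and 1490 CPM without and 215 and 93.5 CPM with it, with 11 of 12 lower in both (median -3.61). Erythroid genes summed to 23430 and 39906 CPM without and 56436 and 66378 CPM with it. These values move with the irradiated groups, and their part was not tested.

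In mutant spleen, Prf1 was the 1 gene of the 10 that was lower in both irradiated libraries (25.7% of all genes), at 16.6 and 14.1 CPM without and 5.02 and 12.1 CPM with irradiation (log2 fold change -0.83 ± 0.45, adjusted p = 0.308 by edgeR). The other 9 overlapped, and 0 were higher in both (26.9%). Gzma went from 61.5 and 45.0 to 38.2 and 48.5 CPM, Ncr1 from 12.3 and 6.51 to 5.72 and 7.53 CPM, and Klrb1c from 14.96 and 9.31 to 6.42 and 14.1 CPM. In both irradiated mutants Gzma lay above the unirradiated wild type values of 33.2 and 36.4 CPM, and Ncr1 lay within or above those of 7.12 and 4.81 CPM. Gzmb lay on both sides of the unirradiated mutants, at 10.5 and 69.5 CPM against 24.3 and 28.8 CPM, and so did Nkg7, Gzmk and Eomes. edgeR called 0 of the 10 and 104 of all genes (0.6%), with 0 of the 10 at an unadjusted p below 0.05 (22.1% of all genes). DESeq2 (11.3% of all genes called) and limma-voom (0.606%) also called 0 of the 10. Of the 10, 3 had a log2 fold change above 0 (56.3% of all genes), with a median of -0.21 against 0.15 over all genes. That count was 7 without mutant replicate 1, 6 without unirradiated mutant replicate 1, and 0, with a median of -1.46, without mutant replicate 2. The direction for Gzmb turned on 1 library: its log2 fold change was 1.34 without mutant replicate 1 (adjusted p = 0.0298 by edgeR, 6.89% of all genes called) and -1.48 without replicate 2 (adjusted p = 0.0175). Without replicate 2, edgeR also called Nkg7 (-1.66, adjusted p = 0.0112), Prf1 (-1.76, adjusted p = 0.0157) and Gzmk (-4.55, adjusted p = 0.00606), with 24.6% of all genes called.

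**Figure D4:**
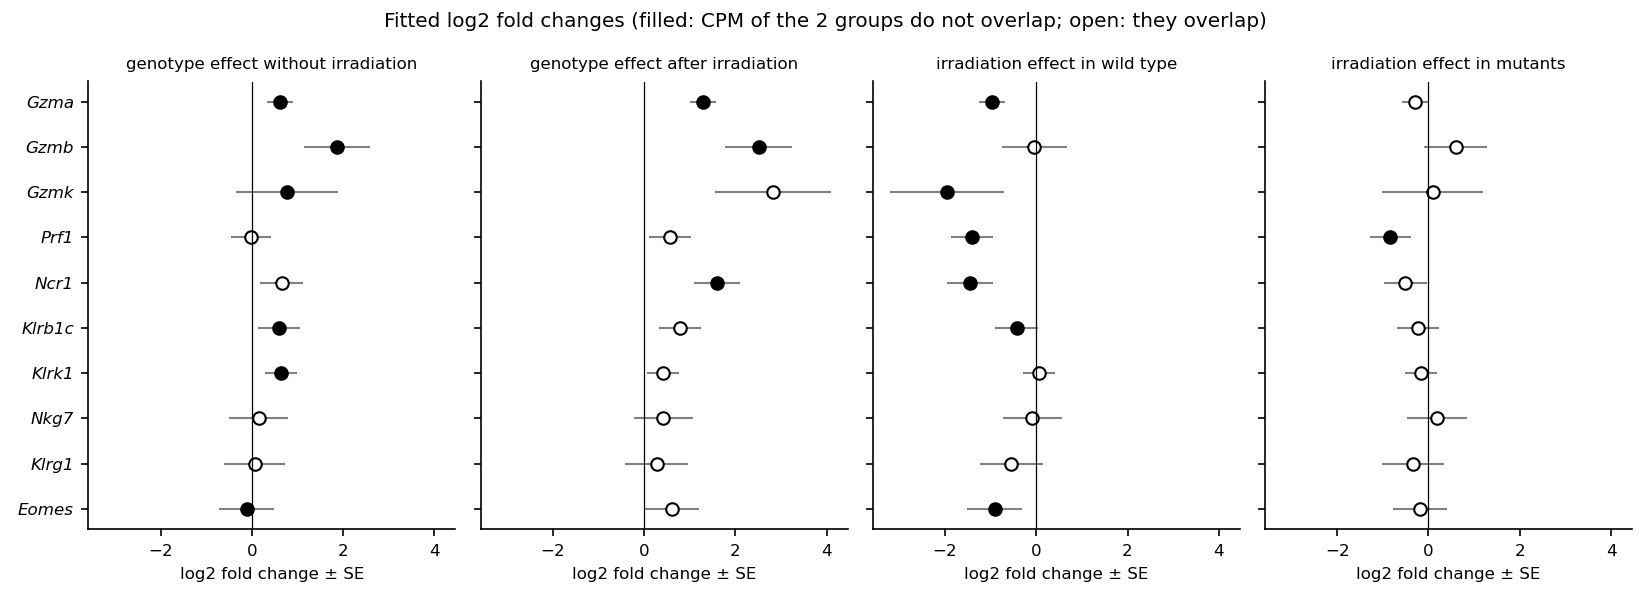
Fitted log2 fold change with its SE (bars) of each of the 10 genes in the 2 genotype comparisons and the 2 irradiation comparisons, filled where the groups did not overlap in CPM. Gzmb (1.87 and 2.51) and Gzma (0.61 and 1.28) lie above 0 in both genotype comparisons, and Prf1 (-1.41 and -0.83) lies below 0 in both irradiation comparisons.

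Whether irradiation acted differently in the genotypes was asked of the difference between the 2 irradiation effects. That difference was above 0 for 9 of the 10 genes (54.2% of all genes), with a median of 0.61 against 0.05 over all genes. Its largest values were 2.06 ± 1.67 for Gzmk, 0.95 ± 0.68 for Ncr1, 0.72 ± 0.85 for Eomes, 0.67 ± 0.40 for Gzma and 0.64 ± 0.99 for Gzmb, on the log2 scale. edgeR called 0 of the 10 and 0% of all genes, and 0 of the 10 had an unadjusted p below 0.05 (1.6% of all genes). DESeq2 (0.0231% of all genes called) and limma-voom (0%) called 0 of the 10. A different response of these genes in mutants was therefore not detectable with 2 libraries a group, and without irradiated mutant replicate 2 only 2 of the 10 were above 0, with a median of -0.64. The 2 irradiation comparisons and the 2 genotype comparisons are built from the same 4 groups and are not independent of each other.

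Other genes of the cytotoxic pathway were followed as fixed lists. Of 22 genes for granule contents, their release and their effector cytokines, 16 were tested. edgeR called 0 higher and 0 lower in each of the 5 comparisons, with 0 to 4 of them at an unadjusted p below 0.05, and limma-voom called 0. DESeq2 called Unc13d and Stxbp2 lower with irradiation in both genotypes and Lamp1 higher with it in mutants. It called 6.7% of all genes for irradiation in wild type and 11.3% for irradiation in mutants. The median between the irradiated genotypes was 0.22, with 12 of 16 above 0. It was 0.74 without mutant replicate 1 and -0.58 without mutant replicate 2. For irradiation in mutants the median was 0.07. That median was 0.60 without mutant replicate 1 and -1.04 without mutant replicate 2. Gzmm, a granzyme abundant in NK cells, ran against Gzma and Gzmb without irradiation. It was at 4.18 and 6.198 CPM in unirradiated wild type and at 1.48 and 2.23 CPM in unirradiated mutants (log2 fold change -1.48 ± 0.54). After irradiation the genotypes overlapped for Gzmm, with 20 and 37 counts in wild type and 15 and 47 counts in mutants (log2 fold change -0.20). Ctsw, a protease of cytotoxic lymphocytes, was also lower in unirradiated mutants, at 32.3 and 52.4 CPM in wild type against 25.5 and 26.0 CPM. Ctsc, which removes the propeptide that keeps granzymes inactive, was at 164 and 185 CPM in unirradiated wild type and 201 and 202 CPM in unirradiated mutants. After irradiation it was at 110 and 142 CPM in wild type and at 190 and 393 CPM in mutants (1.21 ± 0.40). That value was 1.69 without mutant replicate 1 and 0.53 without replicate 2. Of 4 genes for granule docking and fusion in the list, Unc13d and Stxbp2 were, like Prf1, lower in both irradiated libraries of each genotype, and Stx11 and Rab27a were not. Unc13d was at 80.6 and 84.1 CPM in unirradiated and 29.9 and 41.0 CPM in irradiated wild type (log2 fold change -1.22, adjusted p = 0.176 by edgeR), and at 67.5 and 82.6 CPM against 18.6 and 32.4 CPM in mutants (-1.55, adjusted p = 0.0916). For mutants its log2 fold change was -1.26 without irradiated replicate 1 and -2.16 without irradiated replicate 2. Stxbp2 was at 130 and 145 CPM against 59.4 and 73.8 CPM in wild type, and at 116 and 148 CPM against 58.7 and 69.3 CPM in mutants. Both genes are also active in other blood cells. Stx11 was at 38.4 and 36.4 CPM against 49.6 and 37.0 CPM in wild type, and at 54.4 and 61.5 CPM against 53.7 and 47.8 CPM in mutants. Rab27a was at 33.1 and 32.5 CPM against 17.2 and 35.5 CPM in wild type, and at 40.4 and 58.5 CPM against 13.8 and 42.8 CPM in mutants. Ifng, the main cytokine of NK and T cells, was low throughout, at 0.747 to 2.07 CPM in 7 libraries and 5.04 CPM in irradiated mutant replicate 2.

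Of 27 other NK receptors and adaptors, 26 were tested. edgeR called 0 in either direction in each of the 5 comparisons, with 2 to 5 at an unadjusted p below 0.05, and limma-voom called 0. DESeq2 called 1 in each of 3 comparisons: Fcgr3 between the irradiated genotypes (0.421% of all genes called), Klra9 with irradiation in wild type (6.7%) and Fcer1g with irradiation in mutants (11.3%). Without irradiation, 18 of the 26 were higher in both mutants (20.8% of all genes) and 2 were lower in both (25%), with a median log2 fold change of 0.48. Between the irradiated genotypes 7 were higher in both mutants (10.4%) and 0 lower, with a median of 0.64. That median was 0.84 without mutant replicate 1 and -0.13 without mutant replicate 2, where 13 of 27 were above 0. edgeR called 2 higher in each of these fits, Fcgr3 and Cd226 without replicate 1 and Fcgr3 and Klra9 without replicate 2 (1.53% of all genes called). For irradiation in mutants, where the median was -0.34, it called 2 higher and 0 lower without replicate 1 (Fcer1g and Klrb1b), and 1 higher and 6 lower without replicate 2. In wild type, 12 were lower in both irradiated libraries (27.8%) and 4 higher (29.7%). Fcgr3, the Fc receptor through which NK cells and macrophages bind antibody, was at 33.7 and 28.0 CPM in unirradiated wild type and 50.8 and 50.6 CPM in unirradiated mutants. In irradiated spleens it was at 17.8 and 18.7 CPM in wild type and at 59.9 and 73.7 CPM in mutants (log2 fold change 1.87 ± 0.27, adjusted p = 0.812 by edgeR and 4.58e-06 by DESeq2). Without mutant replicate 1 it was 2.06, and without replicate 2 it was 1.65. Its signalling chain Fcer1g was at 132 and 208 CPM in irradiated wild type and 301 and 309 CPM in irradiated mutants. Cd244a, the 2B4 receptor, had a like order: 14.4 and 12.6 against 25.6 and 22.0 CPM without irradiation, and 8.202 and 9.01 against 15.2 and 14.4 CPM after it. Macrophages carry Fcgr3 and Fcer1g too, and the macrophage list summed to 1149 and 2041 CPM in irradiated wild type and 2354 and 3935 CPM in irradiated mutants. Its part was not tested. Klra9, an inhibitory Ly49 receptor, had 2 and 4 counts in irradiated wild type and 28 and 19 counts in irradiated mutants. Klrd1, the CD94 chain, overlapped in both genotype comparisons, at 24.2 and 30.7 against 29.6 and 21.5 CPM without irradiation and 17.8 and 34.8 against 14.9 and 33.5 CPM after it. The Klra genes are related copies, and so are the Klrb1 genes. Their counts, that of Klrb1c included, are uncertain to the extent that reads were shared among such copies, which was not measured.

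Of 22 transcription factors and cytokine receptors of NK cells, all tested, edgeR and limma-voom called 0 in either direction in each of the 5 comparisons, with 0 to 5 at an unadjusted p below 0.05 in edgeR. DESeq2 called Id2 higher with irradiation in both genotypes and S1pr5 lower with it in wild type, where it called 6.7% of all genes, against 11.3% in mutants. The median between the irradiated genotypes was 0.37. It was 0.81 without mutant replicate 1 and -0.92 without mutant replicate 2. For irradiation in mutants the median was -0.25. That median was 0.30 without replicate 1 and -1.58 without replicate 2. Tbx21 (T-bet), the T-box partner of Eomes, was, like Eomes, lower in both irradiated than in both unirradiated wild type libraries, but it overlapped between the unirradiated genotypes where Eomes did not: it was at 14.8 and 16.8 CPM in unirradiated wild type, 18.0 and 16.6 CPM in unirradiated mutants, 3.34 and 6.27 CPM in irradiated wild type, and 4.205 and 16.9 CPM in irradiated mutants. Its log2 fold change with irradiation in wild type was -1.72 ± 0.62 (adjusted p = 0.24 by edgeR). S1pr5, a receptor for NK cell exit from lymphoid tissue, had 112 and 74 counts in unirradiated and 2 and 11 counts in irradiated wild type, and 160 and 85 against 19 and 17 counts in mutants. Both were low in both irradiated wild type libraries. Il2rb, the receptor chain shared by IL-2 and IL-15, was at 69.3 and 64.6 CPM in unirradiated wild type and 59.9 and 81.6 CPM in irradiated wild type, and at 75.3 and 66.4 CPM against 29.7 and 105 CPM in mutants, overlapping in each. Id2, needed for NK cell development but active in many cells, was higher in all 4 irradiated libraries (152 to 242 CPM) than in the 4 unirradiated ones (72.4 to 91.7 CPM). In mutants its log2 fold change was 1.20 (adjusted p = 0.117 by edgeR), 1.37 without replicate 1 and 0.78 without replicate 2. Il18rap, a chain of the IL-18 receptor, was at 22.9 and 20.5 CPM in unirradiated wild type and 40.8 and 43.3 CPM in unirradiated mutants (log2 fold change 0.95 ± 0.39). After irradiation it was at 10.3 and 14.8 CPM in wild type and at 13.1 and 27.8 CPM in mutants.

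Genes of similar pattern were searched for by Pearson's r, with immunoglobulin, T cell receptor, predicted, clone-named and low genes left out. Among the genes searched, log2 levels that followed the mean profile of Gzma, Gzmb, Gzmk and Prf1 most closely over the 8 libraries were those of Retsat (0.986), Atmin (0.976), Gbp9 (0.975), Gbp10 (0.971) and Lypla1 (0.963). Gbp10, a guanylate-binding protein gene induced by interferon, had 3.03 and 2.72 CPM in unirradiated wild type, 10.3 and 8.52 CPM in unirradiated mutants, 1.26 and 0.442 CPM in irradiated wild type, and 0.934 and 13.8 CPM in irradiated mutants. It thus shared with Gzmb and Gzmk the high values in unirradiated mutants and the wide split of the irradiated mutants. For the mean profile of the 4 receptors with Nkg7 and Eomes, the closest were Tbc1d23 (0.970), Zfp867 (0.967), Arhgap18 (0.967), Inpp1 (0.966) and Itga2 (0.966). Itga2, the integrin chain CD49b used as a marker of NK cells, was at 6.90 and 8.10 CPM in unirradiated wild type and 10.9 and 8.98 CPM in unirradiated mutants. It was at 4.51 and 8.12 CPM in irradiated wild type and 4.91 and 10.6 CPM in irradiated mutants. These values are a description over 8 libraries that share group structure, depth and cell makeup.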

How the data were processed

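The values deposited by the authors are raw read counts for each gene in 8 mouse spleen libraries. Tools named in the submitters' processing notes are Trim Galore, Subread and featureCounts, and builds are hg38 and mm10. Not given in the sources used here are their versions, the annotation, the strand setting and how reads with several matches were treated. Counts of the Klra and Klrb1 copies are therefore uncertain, as are those shared with overlapping genes: Klrb1c shares 413 exon bases with Gm44511 (1 count in 8 libraries) and Eomes 118 with the antisense gene Gm33460 (42 counts). Symbols, coordinates and merged exon lengths came from GENCODE M21 (GRCm38), which named 52489 of 52636 identifiers.

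The members and lists were chosen with earlier results of these data known. Named genes were the 10 members, with Tbx21, Il2rb, Ifng, Klrd1, Gzmm, Ctsw and Ctsc. Others came from the up to 4 genes per list and comparison with the smallest p and a mean of at least 1 CPM. Not all of those were named. Rab27a was named outside this rule, as 1 of the 4 docking and fusion genes of its list. Marker genes, low granzyme and ligand genes, and basophil and mast cell genes were also named outside it. Gbp10 and Itga2 were picked for their values among the similar genes. The rule for similar genes was the 5 highest Pearson r with each mean profile of log2 CPM. Only tested genes outside the 10 with a mean of at least 5 CPM were searched. Immunoglobulin, T cell receptor, predicted and clone-named genes were left out.

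Genes were kept by filterByExpr (minimum count 10, minimum total 15), scaled by TMM and fitted in 1 model of all 8 libraries with edgeR 4.0.16 (R 4.3.3), using the quasi-likelihood F test. P-values were adjusted by Benjamini-Hochberg over the 17327 genes tested, and an adjusted p below 0.05 was a call. There were 4 residual degrees of freedom. Each SE was computed as the size of the log2 fold change over the square root of its F value. Alternatives were other size factors, other filters, DESeq2 1.42.0, limma-voom (limma 3.58.1), a replicate block, only the 4 libraries compared, and each library left out. In fits of all libraries, log2 fold changes of single members are printed only where they reach 0.5 in size, and not for every such value. On simulated counts for the genotype effect without irradiation (16917 genes), the test called 0 of 66 genes changed 2-fold, 16.7% of those changed 4-fold and 56.1% of those changed 8-fold. Intervals on ratios and floors cover counting error only, because PCR copies of 1 molecule are counted as separate reads.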

Additional observations from a re-analysis of the deposited data

How the results depend on the processing

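With 2 libraries a group, none of the 66 genes simulated with a 2-fold change passed the test, so a missing call says little about differences of that size. The counts of genes called depended on the tool and the libraries, in the order genotype effect without irradiation, genotype effect after irradiation, irradiation in wild type, irradiation in mutants and interaction. edgeR on all libraries called 0, 0, 10, 104 and 0 genes. DESeq2 called 60, 73, 1161, 1962 and 4, and edgeR with no filter on low counts called 143, 168, 1580, 2147 and 52. With only the 4 libraries compared, 469 genes were called for genotype without irradiation, 1107 for irradiation in wild type and 0 for irradiation in mutants, and limma-voom called 5 for irradiation in wild type. The cause was not tested.

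Leaving out 1 library at a time gave 0 to 15, 0 to 482, 0 to 2551, 3 to 4428 and 0 to 0 genes in the same order, and 0 to 1, 0 to 3, 0 to 3, 0 to 4 and 0 to 0 of the 10 genes. With all libraries none of the 10 was called. With no filter, 1 was called without irradiation (Gzmb), 2 between the irradiated genotypes (Gzmb and Gzmk) and 1 for irradiation in wild type (Prf1). DESeq2 called 1 between the irradiated genotypes and 1 for irradiation in wild type, Gzma each time, and the fit of 4 libraries called 1, Gzmb, without irradiation. Among fold changes of at least 0.5 in size with all libraries, signs turned only when a library was left out. Over these fits, the genotype effect after irradiation (log2) ranged from -1.73 to 3.80 for Gzmk, -0.28 to 1.09 for Prf1 and -0.55 to 1.44 for Eomes. The irradiation effect in mutants ranged from -1.48 to 1.34 for Gzmb and from -0.91 to 0.01 for Ncr1. The interaction ranged from -1.38 to 1.45 for Gzmb, -2.52 to 3.01 for Gzmk, -0.29 to 1.08 for Prf1 and -0.46 to 1.55 for Eomes. The value of opposite sign came without irradiated mutant replicate 2, and for Ncr1 without unirradiated mutant replicate 1. Of the other values of that size, 386 kept their direction and side of the threshold and 19 passed the threshold in an alternative. Smaller values were not tallied, and some of them turned too: between the irradiated genotypes, Nkg7 was -1.33, Klrg1 -0.80 and Klrk1 -0.06 without irradiated mutant replicate 2, and Klrg1 was -0.28 without irradiated wild type replicate 1.

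The labels do not say that libraries with the same replicate number belong together, and deviations of same-numbered libraries correlated at 0.03 to 0.40 between pairs of groups. With the replicate number as a block, 16 genes were called for irradiation in wild type and 253 for irradiation in mutants, and 0 of the 10 in every comparison.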

Other observations

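Several granzymes outside the 10 were at or near 0. Gzmd, Gzme, Gzmg and Gzmn had 0 counts in all 8 libraries. For reads that match 1 gene this allows up to 0.35 CPM in irradiated mutant replicate 1, the library with the highest floor. Reads shared with other genes are not bounded by it, as their treatment is not given. Gzmf had 5 counts in irradiated mutant replicate 2 and 0 in the other 7 libraries. Gzmc, which shares its cluster on chromosome 14 with Gzmb, had 0 to 7 counts in 7 libraries and 17 counts in irradiated mutant replicate 2, the library with the highest Gzmb.

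Ligands of the member receptors and of related receptors were measured in the same RNA. Ulbp1, a ligand of NKG2D, held an even level of 14.7 to 20.4 CPM in all 8 libraries. The other NKG2D ligands with a match, Raet1d, Raet1e, H60b and H60c, were at 1.08 CPM or less in every library, and H60c had 0 counts. Clec2d, a ligand of the inhibitory receptor Klrb1b, was at 109 and 194 CPM in unirradiated wild type, 105 and 113 CPM in unirradiated mutants, 79.7 and 126 CPM in irradiated wild type, and 44.0 and 168 CPM in irradiated mutants. Cdh1 (E-cadherin), a ligand of Klrg1, was at 0.879 and 1.39 CPM in unirradiated wild type and 2.44 and 2.14 CPM in unirradiated mutants, and at 0.811 and 1.68 CPM against 1.52 and 4.15 CPM after irradiation. Of 13 ligand genes, 6 were tested, and edgeR, DESeq2 and limma-voom called 0 in each of the 5 comparisons, with 0 at an unadjusted p below 0.05 in edgeR.

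A list of 9 basophil and mast cell genes, cells that also hold granule proteases, summed to 43.1 to 53.5 CPM in unirradiated wild type, 55.6 and 64.5 CPM in unirradiated mutants, 37.0 and 53.9 CPM in irradiated wild type, and 36.2 and 45.8 CPM in irradiated mutants. The basophil genes Mcpt8 and Prss34 had 0 counts in both irradiated wild type libraries, and in irradiated mutants Mcpt8 had 5 and 1 counts and Prss34 0 and 13 counts. The mast cell protease genes had more counts in irradiated mutant replicate 2, the deeper library, than in replicate 1. Cma1 had 8 and 66 counts in replicates 1 and 2, Cpa3 3 and 44 counts, and Tpsb2 1 and 21 counts. The list did not move together: of 6 tested genes with counts in both libraries, 3 had a higher CPM in replicate 2. Their ratios of replicate 2 to replicate 1 ran from 0.0948 to 6.95, with a median of 1.11. In irradiated wild type Cma1 had 7 and 4 counts, Cpa3 2 and 0 counts, and Tpsb2 1 and 3 counts. The part of these cells in the Gzmb values was not tested.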
